A study of Homo sapiens with 42 samples.

Results

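The genes followed here encode proteins of the mitochondrial ribosome and of the mitochondrial respiratory chain with ATP synthase. They were taken by symbol from a table of 8738 genes. Symbols starting with MRPL or MRPS and a number gave 66 ribosomal protein genes, 44 of the large and 22 of the small subunit. Symbols starting with NDUFA, NDUFB, NDUFC, NDUFS, NDUFV, SDHA to SDHD, UQCR, COX and a number, or ATP5 gave 81 chain genes, so that 147 of 8738 genes were included. A further 18 symbols ending in P and a number, the form used for pseudogenes, were left out. The chain genes comprised 31 complex I subunits and 3 complex I assembly factors, 3 complex II subunits and 1 complex II assembly factor, 10 complex III entries, 11 complex IV subunits and 7 complex IV assembly factors, and 15 ATP synthase genes. The symbols are the older ones of the table, and 146 of 147 were matched to a current RefSeq name. Among them MRPS36 is now named KGD4, a component of 2-oxoglutarate dehydrogenase, and NDUFA4 is now COXFA4, a complex IV subunit, although the symbol rule counts them here with the ribosome and complex I. UQCR11 occurs under 2 identifiers, and UQCRHL is a near copy of UQCRH whose reads may be shared between the pair, so values of both are uncertain.

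The libraries are bulk poly(A) RNA-seq of MiaPaCa-2 and PANC-1, 2 established lines grown from human pancreatic carcinomas and bought from ATCC. Each line was left untreated or treated with fluvastatin, lovastatin or simvastatin at 2 µM or 20 µM, which gives 14 groups of 3 libraries by the labels. Statins inhibit HMG-CoA reductase, the rate-limiting enzyme of the mevalonate pathway that leads to cholesterol, isoprenoids, coenzyme Q and the side chain of heme A. Simvastatin differs from lovastatin by an additional methyl group on the ester side chain, and fluvastatin is a fully synthetic statin. No source used here gives the length of treatment or the vehicle. The untreated groups are called control. No label says that the replicates were separate cultures, so p-values measure the spread between these libraries, which may be technical. In bulk samples, fewer cells and less RNA per cell cannot be told apart.

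The mitochondrial ribosome translates the few proteins encoded by mitochondrial DNA, all of them subunits of complexes I, III and IV and of ATP synthase. Its own proteins, and all other subunits of the chain, are encoded in the nucleus, made in the cytosol and imported. Complexes I to IV pass electrons from NADH and succinate to oxygen and most of them pump protons across the inner membrane, and ATP synthase uses the resulting gradient to make ATP. Transcripts encoded by mitochondrial DNA were not analysed here.

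The promoters of 6 members on which the results below turn are shown first, because the nuclear genes of this set are known in part for shared promoter motifs. They are RefSeq windows on GRCh38.p14, each running from 250 bases before to 50 bases after an annotated start, and given 5′ to 3′ on the gene's own strand. MRPL12 (chr17:81703117-81703416, plus strand), MRPL28 (chr16:370489-370788, minus strand), ATP5G1 (chr17:48892537-48892836, plus strand) and UQCRFS1 (chr19:29213102-29213401, minus strand) were lower after statins in both lines, MRPS10 (chr6:42217812-42218111, minus strand) and COX14 (chr12:50111986-50112285, plus strand) higher in PANC-1. Capitals mark matches, on either strand, to the NRF1 motif GCGCNTGCG, the ETS motif CCGGAAG, the YY1 motif AAGATGGCG and the E-box CACGTG.
MRPL12: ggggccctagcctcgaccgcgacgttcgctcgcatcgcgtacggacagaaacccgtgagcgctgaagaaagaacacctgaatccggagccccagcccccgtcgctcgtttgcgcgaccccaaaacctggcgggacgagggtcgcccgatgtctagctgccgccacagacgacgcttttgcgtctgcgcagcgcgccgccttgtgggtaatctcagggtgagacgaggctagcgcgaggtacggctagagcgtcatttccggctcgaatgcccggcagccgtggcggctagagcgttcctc
MRPL28: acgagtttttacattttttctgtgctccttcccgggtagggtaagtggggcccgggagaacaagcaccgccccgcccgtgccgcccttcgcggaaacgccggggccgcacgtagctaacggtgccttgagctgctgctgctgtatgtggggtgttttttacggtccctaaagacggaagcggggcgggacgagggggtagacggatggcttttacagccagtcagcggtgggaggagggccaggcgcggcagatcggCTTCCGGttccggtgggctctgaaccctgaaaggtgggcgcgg
ATP5G1: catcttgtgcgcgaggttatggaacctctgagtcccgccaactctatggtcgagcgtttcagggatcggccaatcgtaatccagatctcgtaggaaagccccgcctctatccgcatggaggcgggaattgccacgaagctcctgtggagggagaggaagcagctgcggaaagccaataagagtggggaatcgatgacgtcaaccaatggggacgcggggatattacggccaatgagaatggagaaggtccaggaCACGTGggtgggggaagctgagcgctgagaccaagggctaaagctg
UQCRFS1: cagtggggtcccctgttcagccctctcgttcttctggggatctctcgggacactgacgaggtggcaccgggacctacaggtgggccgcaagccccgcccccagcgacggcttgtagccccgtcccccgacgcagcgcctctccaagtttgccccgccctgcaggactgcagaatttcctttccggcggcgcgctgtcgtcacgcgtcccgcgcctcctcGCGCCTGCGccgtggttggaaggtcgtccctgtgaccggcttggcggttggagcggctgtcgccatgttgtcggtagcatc
MRPS10: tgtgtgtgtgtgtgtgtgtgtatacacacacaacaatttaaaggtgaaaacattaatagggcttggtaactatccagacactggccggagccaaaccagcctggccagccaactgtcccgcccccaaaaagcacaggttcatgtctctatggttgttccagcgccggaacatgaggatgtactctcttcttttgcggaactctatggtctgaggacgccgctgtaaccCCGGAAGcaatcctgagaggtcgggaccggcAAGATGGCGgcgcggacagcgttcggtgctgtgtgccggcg
COX14: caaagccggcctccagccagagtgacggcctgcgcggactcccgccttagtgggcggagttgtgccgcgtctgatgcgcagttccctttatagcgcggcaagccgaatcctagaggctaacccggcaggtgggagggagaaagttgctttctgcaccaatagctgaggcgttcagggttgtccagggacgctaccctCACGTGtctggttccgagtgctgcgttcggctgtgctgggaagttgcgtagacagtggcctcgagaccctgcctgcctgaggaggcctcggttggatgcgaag

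The MRPL12 window holds none of these letters. The MRPL28 window holds the ETS letters on the opposite strand, ATP5G1 and COX14 each hold an E-box, UQCRFS1 holds the NRF1 letters, and MRPS10 holds both the ETS and the YY1 letters. Of the 147 members, 126 matched a RefSeq promoter. The ETS letters were found for 42.4% of 59 ribosomal protein genes and 34.3% of 67 chain genes, against 16.5% of 15843 protein-coding genes. The ETS and YY1 letters can overlap at AAG. The YY1 letters were found for 18.6% of ribosomal protein and 10.4% of chain genes, against 3.21% of protein-coding genes, and the E-box for 13.6%, 10.4% and 10.9% in the same order. The NRF1 letters were found for 16.9% of ribosomal protein, 34.3% of chain and 12.5% of protein-coding genes. The search had first been run with 1 more letter, a final C for NRF1 and a final G for YY1: the NRF1 shares were then 13.6%, 22.4% and 9.67%, and the YY1 shares 18.6%, 10.4% and 2.22%. A gene with more than 1 annotated start counts as holding a motif if any of its windows does, and a match is a description of the letters, not of binding.

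The values are log2(FPKM + 1), and the number of reads behind each library is not known. The median over all 8738 genes lay between 4.35 and 4.40 in every library, so a change in total mRNA would not be visible. In MiaPaCa-2, control replicate 3 and lovastatin 20 µM replicate 3 are weighted sums of other columns and were left out, which leaves 19 libraries of MiaPaCa-2, with 2 in each of these groups, and 21 of PANC-1. Both lines expressed the keratins KRT8 (means of 555.7 FPKM in MiaPaCa-2 control and 607.3 in PANC-1 control), KRT18 (440.3 and 433.5) and KRT19 (135.1 and 289.6). The epithelial adhesion genes EPCAM and CDH1 stood at 53.35 and 40.98 FPKM in PANC-1, against 0.273 and 0.927 in MiaPaCa-2. The macrophage marker CD68 stood at 12.8 FPKM in MiaPaCa-2 and 35.06 in PANC-1, in that order, the fibroblast collagens COL1A1 at 1.26 and 142.3 and COL1A2 at 61.33 and 8.602, and the mesenchymal gene VIM at 2972 and 2379, and none of KRT7, COL3A1, PDGFRB, DCN, PTPRC, CD3E and LYZ is in the table used here.

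In untreated cells both sets were highly expressed. Control means of the ribosomal protein genes ran from 12.75 to 467 FPKM in MiaPaCa-2, with a median of 73.35, and from 9.273 to 246.5 in PANC-1, with a median of 63.06. Control means of the chain genes ran from 6.837 to 1460 FPKM in MiaPaCa-2, with a median of 181.7, and from 4.248 to 2013 in PANC-1, with a median of 166.6. The extremes of the chain were the same genes in both lines, ATP5B, the catalytic beta subunit of ATP synthase, at the top and COX18, which inserts the COX2 protein into the membrane, at the bottom.

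Between the untreated lines, 13 of 66 ribosomal protein genes were higher and 32 lower in PANC-1 (limma on log2(FPKM + 1) in 1 fit over both lines, Benjamini-Hochberg adjusted p under 0.05 over all genes, two-sided). Of the 81 chain genes, 23 were higher and 39 lower. Over all genes 64.6% were called, 28.7% higher and 35.9% lower. MRPS2, a small-subunit protein, stood at 149 and 130 FPKM in MiaPaCa-2 and 33.65, 35.5 and 44.25 in PANC-1, a log2 difference of -1.87 ± 0.14 (SE), adjusted p = 4.1e-13. COX17, the copper chaperone of complex IV, showed the opposite order, with 12.5 and 19.6 FPKM in MiaPaCa-2 and 76.4, 76.2 and 61.8 in PANC-1 (2.11 ± 0.21 (SE), adjusted p = 5.83e-10). For neither gene did the libraries of the lines overlap. COX17 was chosen after its values were seen, and the naming rule drew MRPS2 from other comparisons, not from this one.

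The median level of each set in each library shows the main course. In MiaPaCa-2 the ribosomal median fell short of the control in all 17 treated libraries, from 6.20 and 6.23 on the log2(FPKM + 1) scale in control to between 5.61 and 5.86, with no overlap at either concentration. In PANC-1 the ribosomal median was 5.93 to 6.00 in control and 5.36 to 5.47 with 20 µM fluvastatin, 5.51 to 5.67 with 20 µM lovastatin and 5.83 to 5.98 with 20 µM simvastatin. The fluvastatin and lovastatin libraries lay below control, and the simvastatin libraries overlapped it. The chain median was lowest in MiaPaCa-2 with 20 µM simvastatin, at 7.03 to 7.09 against 7.49 and 7.54 in control, and in PANC-1 with 20 µM fluvastatin, at 7.08 to 7.12 against 7.41 to 7.49. In these libraries the chain and the ribosome were both below control, whereas in MiaPaCa-2 with 20 µM fluvastatin the chain median, 7.47 to 7.56, overlapped control.

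**Figure D1:**
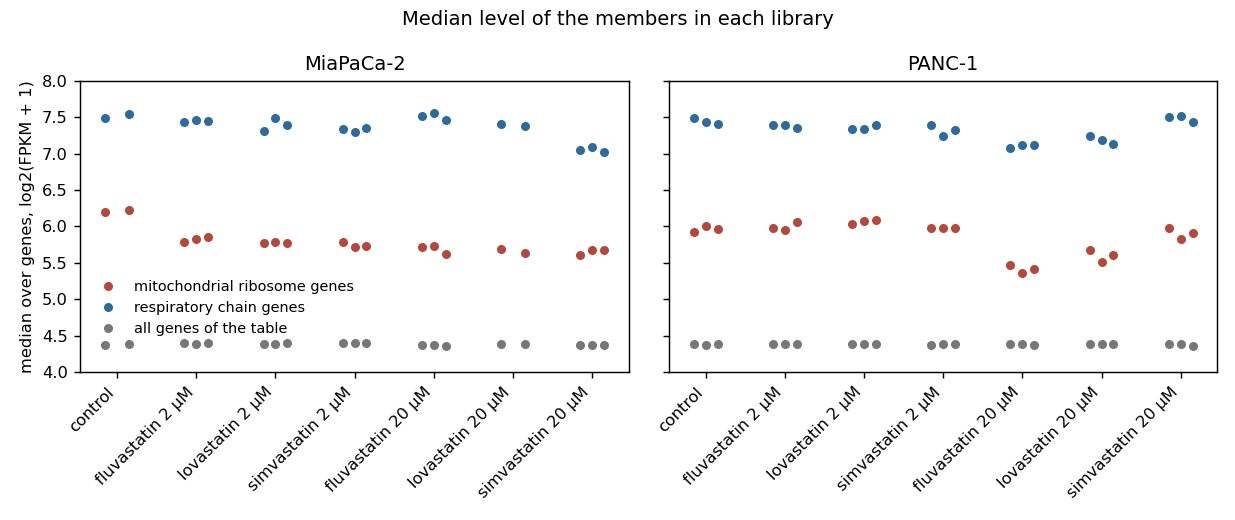
Median log2(FPKM + 1) over the 66 ribosomal protein genes (red), the 81 chain genes (blue) and all 8738 genes (grey) in each library, by line and group on the x axis; each point is 1 library. The ribosomal medians of treated MiaPaCa-2 libraries, 5.61 to 5.86, lie below the controls at 6.20 and 6.23, and the grey points stay between 4.35 and 4.40.

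At 2 µM the lines differed. In MiaPaCa-2, fluvastatin lowered 38 of 66 ribosomal protein genes and raised 2, and lowered 34 of 81 chain genes and raised 4. The table as a whole had 43.2% of genes called, 20.9% higher and 22.3% lower, in this comparison. Lovastatin lowered 40 ribosomal protein and 42 chain genes and raised 0 and 7 (45.5% of all genes called, 21.9% higher and 23.5% lower). Simvastatin lowered 43 and 44 and raised 2 and 4 (45.5% called, 21.7% higher and 23.8% lower). Averaged over the 3 statins, 43 ribosomal protein genes fell and 2 rose, with a median log2 fold change of -0.43, and 42 chain genes fell and 6 rose, with a median of -0.25. All genes had a median of -0.05, with 51% called, 23.9% higher and 27.1% lower. The fluvastatin count of 40 ribosomal protein genes called in either direction dropped to 25 when either control library was left out.

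In PANC-1 at 2 µM hardly any member passed. Fluvastatin lowered MRPL3 (-0.43, adjusted p = 0.0336), MRPS9 (-0.44, adjusted p = 0.0449) and the complex I subunit gene NDUFA2 (-0.36, adjusted p = 0.0336), all by log2 fold change in limma, where 3.95% of all genes were called, 2.96% higher and 0.987% lower. These 3 are named because they are few, after their values were seen. With lovastatin and simvastatin limma called 0 members, where 2.81% of all genes (1.97% higher and 0.836% lower) and 3.97% (2.69% higher and 1.28% lower) were called. At an unadjusted p under 0.05 there were 6 ribosomal protein and 12 chain genes with lovastatin, and 7 and 5 with simvastatin. The shares of all genes in this paragraph are at the adjusted threshold and are no background for counts at an unadjusted p. For the mean of the statins limma called 0 members (7 ribosomal protein and 11 chain genes at an unadjusted p under 0.05, and 6.34% of all genes called, 4.34% higher and 2% lower), and the fit of only the groups compared called 3 ribosomal protein genes. The median 95% interval reached 0.21 to either side of the estimate for ribosomal protein and 0.16 for chain genes on the log2 scale, and most changes smaller than that were not detectable here. These intervals are not adjusted for the number of genes, so changes larger than that could also go uncalled at an adjusted p under 0.05. When single libraries were left out, at most 2 ribosomal protein or chain genes were called with fluvastatin, at most 3 chain genes with lovastatin (3 without control replicate 2) and at most 2 chain genes with simvastatin.

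The difference between the lines at 2 µM was itself tested. For the mean statin response, 33 of 66 ribosomal protein genes were higher in PANC-1 than in MiaPaCa-2 and 1 lower, and 35 of 81 chain genes were higher and 4 lower, where 40.5% of all genes were called, 21.4% higher and 19.1% lower. The median differences were 0.37 and 0.23 on the log2 scale.

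**Figure D2:**
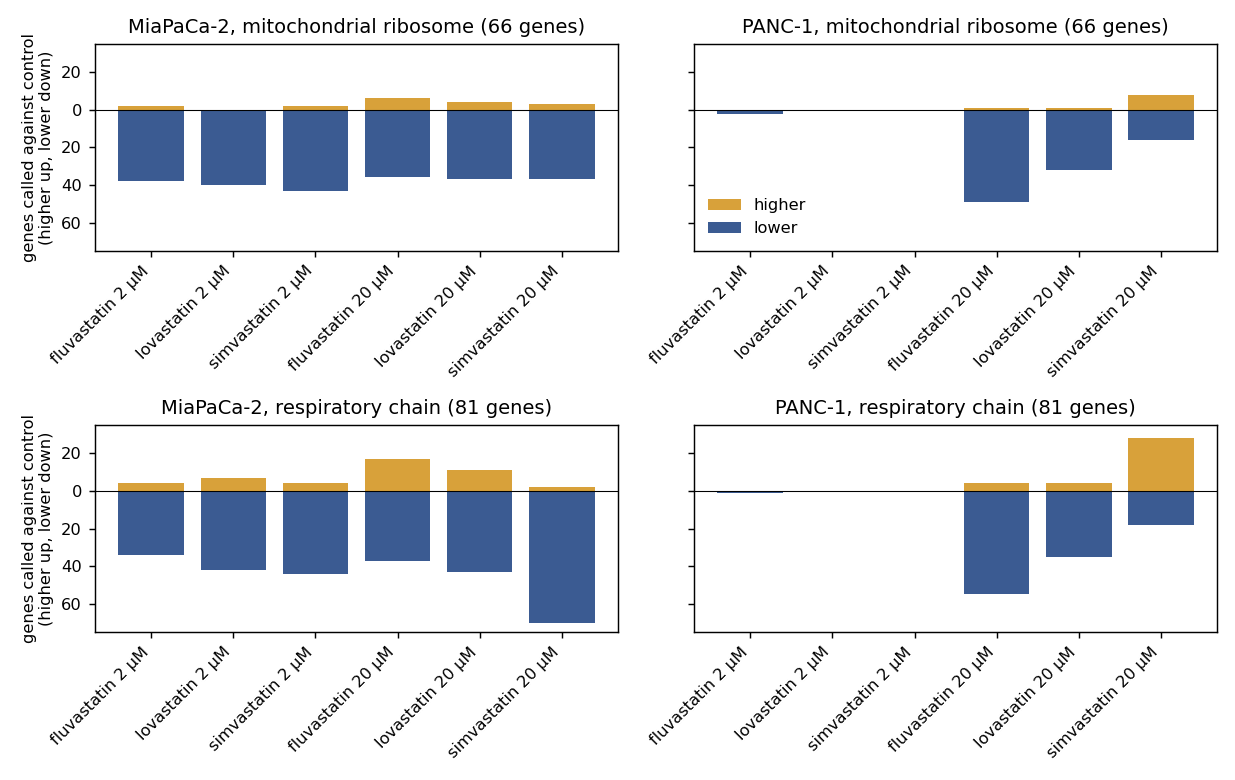
Number of genes called against control by limma (adjusted p under 0.05), higher plotted upwards in gold and lower downwards in blue, for the 66 ribosomal protein genes (top) and 81 chain genes (bottom) of each line, by statin and concentration. Bars at 2 µM are long in MiaPaCa-2, with 34 to 44 genes lower, and near 0 in PANC-1.

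Among ribosomal protein genes at 2 µM, MRPL34 and MRPL12 led the decreases in MiaPaCa-2. MRPL34, a large-subunit protein, stood at 43.2 and 40.65 FPKM in control, 21.8, 21.1 and 28.6 with fluvastatin, 17.7, 15.1 and 20.6 with lovastatin and 20.0, 19.8 and 16.65 with simvastatin. All 9 treated libraries lay below both controls, and the mean log2 fold change was -1.04 ± 0.13 (SE), adjusted p = 7.76e-06. MRPL12, the mitochondrial counterpart of the bacterial L7/L12 stalk protein that recruits translation factors, stood at 102.5 and 106 FPKM in control and 51.4 to 68.8 in the 9 libraries at 2 µM (-0.85 ± 0.09 (SE), adjusted p = 6.41e-07). The groups did not overlap. In PANC-1 MRPL12 stood at 103, 102 and 88.2 FPKM in control and 83.8 to 121 at 2 µM, which overlapped. MRPL17 rose in MiaPaCa-2, from 104 and 77.6 FPKM to 107.5 to 161, a log2 fold change of 0.55 ± 0.15 (SE), adjusted p = 0.00696, with its lowest treated library just above the higher control.

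Among chain genes at 2 µM in MiaPaCa-2, NDUFAF4 had the largest called fall and COX20 the largest called rise. NDUFAF4, a complex I assembly factor, stood at 54.7 and 61.3 FPKM in MiaPaCa-2 control and 24.5 to 34.5 at 2 µM (-1.0 ± 0.12 (SE), adjusted p = 4.34e-06), and at 46.4, 52.3 and 45.4 FPKM in PANC-1 control and 47.15 to 60.7 at 2 µM. The MiaPaCa-2 groups were apart and the PANC-1 groups overlapped, and the log2 difference between the lines was 1.15 ± 0.16 (SE), adjusted p = 9.42e-07. COX20, which handles newly made COX2 protein for complex IV, rose in MiaPaCa-2 from 29 and 29.7 FPKM to 63.45, 66.6 and 61.5 with fluvastatin, 58.9, 68.6 and 72 with lovastatin and 75.6, 58 and 65.1 with simvastatin (1.13 ± 0.11 (SE), adjusted p = 5.9e-07). Every treated library was well above both controls. At 20 µM the same gene was back at 26.9 to 41.85 FPKM (0.23 ± 0.11 (SE), adjusted p = 0.0831, not called), and the 20 µM libraries overlapped control but not the 2 µM libraries. In PANC-1 it ranged from 38.8 to 53 FPKM over control and 2 µM.

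The iron-sulfur subunit of complex II, SDHB, stood at 316 and 290.4 FPKM in MiaPaCa-2 control and 136 to 199 at 2 µM (-0.86 ± 0.10 (SE), adjusted p = 5.64e-06). The complex I subunit gene NDUFS6 stood at 149.7 and 169 FPKM in control and 73.9 to 98.5 at 2 µM (-0.86 ± 0.08 (SE), adjusted p = 5.19e-07). Neither gene's treated libraries reached the controls. UQCRB, a complex III subunit gene, was among the few that rose, from 179 and 205 FPKM to 218 to 268 (0.34 ± 0.08 (SE), adjusted p = 0.00215). The call was lost without control replicate 1, where the log2 fold change was 0.24 with an adjusted p of 0.084.

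At 20 µM more ribosomal protein genes fell than rose with every statin in both lines, and with simvastatin in PANC-1 the share that fell was below that of all genes. In MiaPaCa-2, fluvastatin lowered 36 and raised 6 of 66 genes (65.4% of all genes called, 32.9% higher and 32.5% lower), lovastatin lowered 37 and raised 4 (58.9% called, 28.8% higher and 30.1% lower), and simvastatin lowered 37 and raised 3 (65.3% called, 32.2% higher and 33.1% lower). In PANC-1, fluvastatin lowered 49 and raised 1 (63.4% called, 32.5% higher and 31% lower), lovastatin lowered 32 and raised 1 (46.3% called, 23.9% higher and 22.4% lower), and simvastatin lowered 16 and raised 8 (59.5% called, 29.4% higher and 30.2% lower). The 24 genes called with simvastatin in PANC-1 became 13 in the fit of only the groups compared. For the mean of the statins, 41 fell and 3 rose in MiaPaCa-2, with a median log2 fold change of -0.43 against 0.02 over all genes (67.8% called, 34.1% higher and 33.7% lower). In PANC-1, 38 fell and 3 rose, with a median of -0.28 against -0.01 over all genes (61.9% called, 30.8% higher and 31.1% lower). The lines share no library, and 29 ribosomal protein genes fell in both, 70.7% of those lower in MiaPaCa-2 and 76.3% of those lower in PANC-1. Over all genes in both fits the corresponding shares were 65.4% and 71.4%.

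MRPL28, a large-subunit protein, stood at 79.9 and 74.85 FPKM in MiaPaCa-2 control, 31.5, 33.9 and 35.6 with fluvastatin, 34.6 and 33.6 with lovastatin and 27.8, 26.9 and 30.2 with simvastatin at 20 µM. All treated libraries were below control, with a mean log2 fold change of -1.25 ± 0.09 (SE), adjusted p = 6.73e-09. In PANC-1 the same gene stood at 52.3, 64.3 and 56.4 FPKM in control, 30.2, 36.55 and 36.3 with fluvastatin, 46.5, 42.1 and 40.5 with lovastatin and 55.5, 48.9 and 51.9 with simvastatin (-0.43 ± 0.07 (SE), adjusted p = 5.69e-05 for their mean). The fluvastatin and lovastatin libraries lay below control and the simvastatin libraries overlapped it. MRPL12 stood at 43.5 to 63.05 FPKM in the 8 MiaPaCa-2 libraries at 20 µM (-0.92 ± 0.09 (SE), adjusted p = 1.16e-07). In PANC-1 it stood at 44.3, 41.9 and 44.9 with fluvastatin, 65.3, 65.2 and 60.6 with lovastatin and 77.1, 87.1 and 73.5 with simvastatin (-0.68 ± 0.08 (SE), adjusted p = 1.28e-06 for their mean), all below the lowest control of 88.2. MRPL10, the other ribosomal stalk protein, was called in neither line (0.03 in MiaPaCa-2, adjusted p = 0.839, and -0.15 in PANC-1, adjusted p = 0.368). MRPL35 stood at 47.3, 42.6 and 46.8 FPKM in PANC-1 control and 20.4 to 37.2 at 20 µM (-0.79 ± 0.09 (SE), adjusted p = 3.72e-07), and at 73.2 and 73.5 in MiaPaCa-2 control and 29.5 to 52.75 at 20 µM (-0.96 ± 0.10 (SE), adjusted p = 2.77e-07). In both lines its treated libraries were apart from control.

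Of the ribosomal protein genes, MRPL41 of the large subunit was the 1 called higher in both lines for the mean of the statins at 20 µM, by small changes (0.23 ± 0.08 (SE), adjusted p = 0.0231 in MiaPaCa-2 and 0.25 ± 0.08 (SE), adjusted p = 0.0117 in PANC-1). In MiaPaCa-2 it stood at 76.1 and 70.6 FPKM in control, 96.3, 90.8 and 94.6 with fluvastatin, 93.8 and 103 with lovastatin and 67.95, 66 and 73.1 with simvastatin. Its PANC-1 levels were 33.4, 33.8 and 33.8 in control, 34.05, 34.9 and 32.6 with fluvastatin, 35.75, 34.3 and 33.1 with lovastatin and 54.3, 47.4 and 66.9 with simvastatin. The libraries above control were those of fluvastatin and lovastatin in MiaPaCa-2, and in PANC-1 those of simvastatin, while the other two statins overlapped control there. MRPL41 was chosen after its values were seen, and its MiaPaCa-2 call was lost without control replicate 2 (0.17, adjusted p = 0.208). In the small subunit, MRPS10 stood at 59, 58.3 and 54.4 FPKM in PANC-1 control and rose to 82.3, 84 and 84 with fluvastatin, 75.85, 75.1 and 68.8 with lovastatin and 79.4, 78.4 and 67.7 with simvastatin (0.42 ± 0.06 (SE), adjusted p = 9.43e-06). No treated library overlapped control. In MiaPaCa-2 it was lower at 2 µM, at 22.5 to 32.7 FPKM against 40.4 and 41.5 in control (-0.59 ± 0.13 (SE), adjusted p = 0.00113). At 20 µM it rose with fluvastatin, to 52.9, 59.1 and 54.1 (0.43 ± 0.15 (SE), adjusted p = 0.0188), stood at 53 and 45.1 with lovastatin (0.25, adjusted p = 0.195) and fell with simvastatin, to 30.25, 29.5 and 32.4 (-0.40 ± 0.15 (SE), adjusted p = 0.0244). MRPS21 rose in MiaPaCa-2 with every statin at 20 µM, from 94.7 and 89 FPKM to 106 to 145.5 (0.45 ± 0.07 (SE), adjusted p = 2.5e-05). In PANC-1 it stood at 53.75, 54.6 and 61.4 FPKM in control and 38.6 to 73.1 at 20 µM, which overlapped (-0.13, adjusted p = 0.332). MRPL23 varied widely within groups: with 20 µM fluvastatin it read 7.74, 11 and 0.0639 FPKM in MiaPaCa-2 and 3.12, 11.3 and 17.7 in PANC-1. For the mean of the statins at 20 µM it was not called in MiaPaCa-2 (-0.94). In PANC-1 it was called lower with fluvastatin than with simvastatin at 20 µM (-2.23), and lower at 20 µM than at 2 µM (-0.80).

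The chain at 20 µM differed by statin and by line. In MiaPaCa-2, simvastatin lowered 70 of 81 chain genes and raised 2, with a median log2 fold change of -0.62, whereas fluvastatin lowered 37 and raised 17 (median -0.26) and lovastatin lowered 43 and raised 11 (median -0.31). In PANC-1, fluvastatin lowered 55 and raised 4 (median -0.38), lovastatin lowered 35 and raised 4 (median -0.27), and simvastatin lowered 18 and raised 28 (median 0.10). The fit of only the groups compared called 24 chain genes for simvastatin in PANC-1, where the count here is 46 in either direction. The shares of all genes called in each of these comparisons are those given with the ribosome, 29.4% higher and 30.2% lower for simvastatin in PANC-1 and 32.2% and 33.1% for simvastatin in MiaPaCa-2. Of the 28 genes that rose with simvastatin in PANC-1, 20 fell with it in MiaPaCa-2, and all 18 that fell in PANC-1 also fell in MiaPaCa-2. Over all genes in both fits, 10.9% of those higher in PANC-1 were lower in MiaPaCa-2, against 71.4% among chain genes, and 57.3% of those lower in PANC-1 were lower in MiaPaCa-2. The 71.4% follows largely from the 70 of 81 chain genes that fell in MiaPaCa-2. It does not single out genes that moved oppositely in the lines. For fluvastatin, 33 chain genes fell in both lines, 89.2% of those lower in MiaPaCa-2 and 60% of those lower in PANC-1, against 66.2% and 70.2% over all genes.

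**Figure D3:**
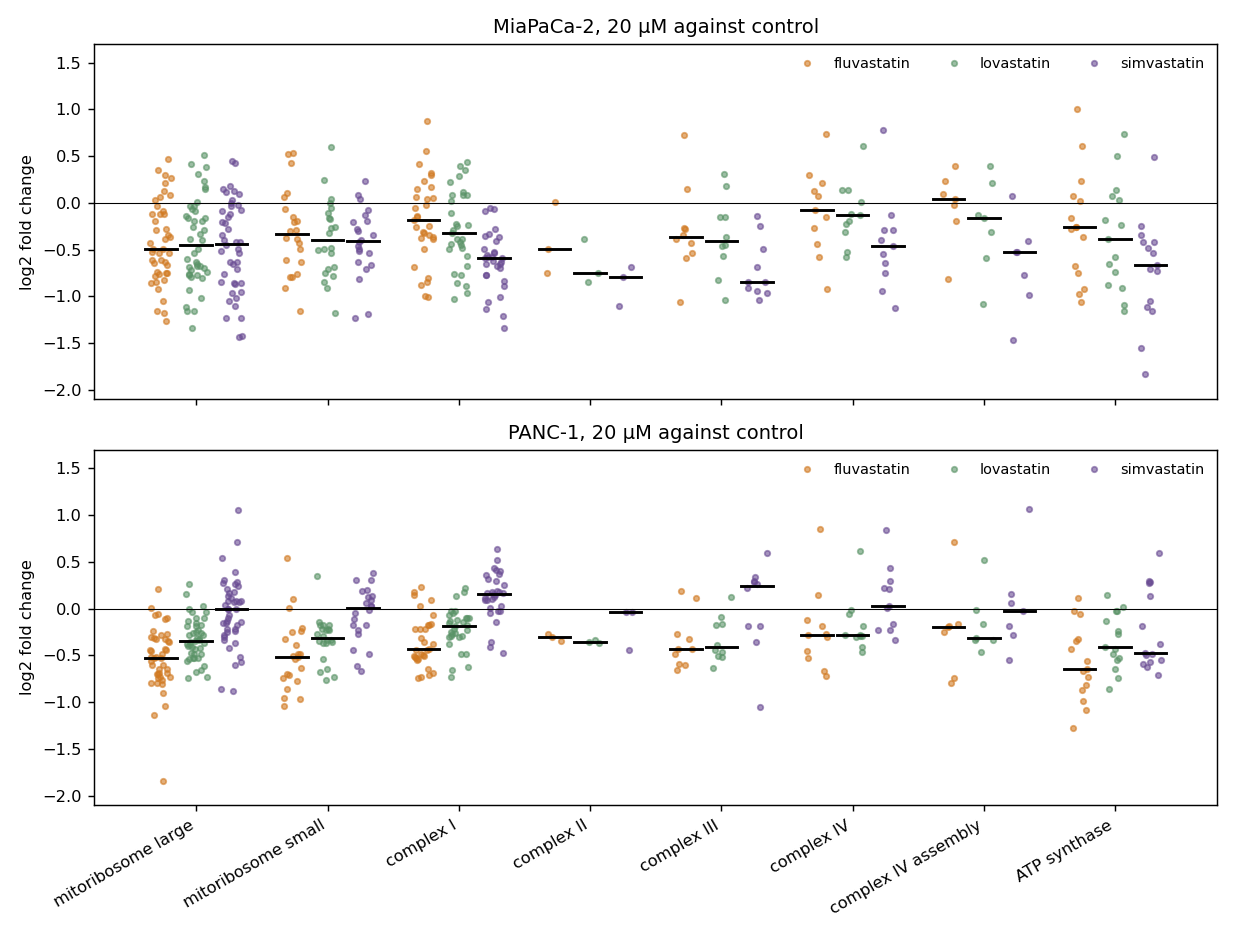
Log2 fold change against control at 20 µM for each gene (points), by complex on the x axis and statin (fluvastatin orange, lovastatin green, simvastatin purple), in MiaPaCa-2 (top) and PANC-1 (bottom); black bars are medians over the genes. Assembly factors of complexes I and II are not drawn. The simvastatin median of complex I is -0.59 in MiaPaCa-2 and 0.16 in PANC-1.

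In complex I, simvastatin at 20 µM lowered 28 of 31 subunit genes in MiaPaCa-2 and raised none of them, with a median of -0.59. In PANC-1 it raised 12 and lowered 3, NDUFA4, NDUFA9 and NDUFS1, with a median of 0.16. Over all genes simvastatin raised 32.2% and lowered 33.1% in MiaPaCa-2, and raised 29.4% and lowered 30.2% in PANC-1. NDUFS7, the core subunit with the last iron-sulfur cluster before ubiquinone, stood at 103 and 96.2 FPKM in MiaPaCa-2 control and 64.8, 58.6 and 65.8 with simvastatin (-0.65 ± 0.08 (SE), adjusted p = 1.81e-06), and at 44.3, 48.3 and 56.7 in PANC-1 control and 60.35, 60.5 and 62.8 with simvastatin (0.30 ± 0.12 (SE), adjusted p = 0.0361). In each line treated and control libraries were apart, in opposite directions. NDUFS4, an accessory subunit, stood with 20 µM fluvastatin at 227, 229 and 217 FPKM in MiaPaCa-2 against 126 and 117 in control (0.88 ± 0.08 (SE), adjusted p = 4.99e-08). With simvastatin it stood at 128, 106 and 119.6, within reach of control (-0.05, adjusted p = 0.594). NDUFAB1, the mitochondrial acyl carrier protein and a complex I subunit, fell with every statin in MiaPaCa-2, from 137 and 144 FPKM to 48.6 to 83.15 (-1.08 ± 0.09 (SE), adjusted p = 4.5e-08). In PANC-1 it stood at 245, 211 and 190.5 FPKM in control and fell to 134, 144 and 135 with fluvastatin (-0.64 ± 0.08 (SE), adjusted p = 9.98e-07), while 199, 199 and 188 with simvastatin overlapped control.

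In complexes II and III, the 3 complex II subunit genes of the table, SDHB, SDHC and SDHD, and 8 of 10 complex III entries fell with simvastatin in MiaPaCa-2, against 33.1% of all genes. SDHA is not in the table used here. UQCRFS1, the Rieske iron-sulfur protein of complex III, stood at 38.3 and 40.8 FPKM in control and 18 to 20.8 at 20 µM (-1.01 ± 0.08 (SE), adjusted p = 6.33e-09). In PANC-1 it stood at 31.8, 36 and 29.8 in control, 21.9, 18.8 and 22.4 with fluvastatin, 22.1, 23.6 and 21.6 with lovastatin and 30.45, 28.6 and 26.2 with simvastatin. Only the simvastatin libraries overlapped control among these. UQCRC2, a core protein of complex III, fell furthest with simvastatin in PANC-1, from 288, 285 and 245 FPKM to 139, 131 and 122 (-1.05 ± 0.10 (SE), adjusted p = 4.74e-08). In the same libraries the small subunit gene UQCRB rose, from 249, 285 and 273 to 351, 303 and 374 (0.34 ± 0.09 (SE), adjusted p = 0.0031), so complex III held changes in both directions.

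In complex IV, COX7A2L, also named SCAF1 and known as a supercomplex factor, rose with every statin in both lines. It stood at 115 and 121 FPKM in MiaPaCa-2 control, 203, 195 and 195.5 with fluvastatin, 182 and 180 with lovastatin and 206, 211 and 195 with simvastatin at 20 µM (0.71 ± 0.05 (SE), adjusted p = 2.52e-09). In PANC-1 it stood at 113, 119 and 128 in control, 222, 213 and 214 with fluvastatin, 183, 188 and 183 with lovastatin and 241, 239.9 and 173 with simvastatin (0.77 ± 0.07 (SE), adjusted p = 6.76e-08). No treated library reached the control range in either line. At 2 µM it ranged from 116.5 to 133 in MiaPaCa-2 and from 121 to 133 in PANC-1, which overlapped control. Its paralog COX7A2, the widely expressed form of subunit VIIa, was lower in both lines (-0.23 ± 0.07 (SE), adjusted p = 0.00789 in MiaPaCa-2 and -0.30 ± 0.07 (SE), adjusted p = 0.000773 in PANC-1). The MiaPaCa-2 call for COX7A2, and that for COX6A1 (-0.26 ± 0.08 (SE), adjusted p = 0.00993), were lost without control replicate 2, at -0.18 (adjusted p = 0.112) and -0.21 (adjusted p = 0.126). COX6B1, the subunit VIb gene, was lower in both lines (-0.50 ± 0.06 (SE), adjusted p = 1.18e-06 in MiaPaCa-2 and -0.45 ± 0.10 (SE), adjusted p = 0.000607 in PANC-1). COX4I1, the subunit IV gene, was lower in MiaPaCa-2 (-0.21 ± 0.05 (SE), adjusted p = 0.00138), and in PANC-1 its call (-0.18 ± 0.08 (SE), adjusted p = 0.0423) was lost without any of 5 libraries, with the smallest change, -0.08, without control replicate 3 (adjusted p = 0.374).

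Complex IV assembly factors differed among themselves. COX14, needed for COX1 synthesis, rose in PANC-1 from 30.1, 39.6 and 39.6 FPKM to 63.55, 58.2 and 57.5 with fluvastatin, 52.5, 44.6 and 60.95 with lovastatin and 87.6, 82.8 and 63.3 with simvastatin (0.77 ± 0.11 (SE), adjusted p = 8.99e-06). In MiaPaCa-2 it stood at 38.6 and 36.2 in control and 23.2 to 41.1 at 20 µM, an overlap with a log2 fold change of -0.23 ± 0.14 (SE), adjusted p = 0.16. COX16 stood at 49.7 and 58.1 FPKM in MiaPaCa-2 control, 58.7, 58.7 and 48.9 with fluvastatin and 26.8, 25.8 and 27.9 with simvastatin. In PANC-1 the order was the reverse, with 45.8, 42.65 and 44 in control, 22.5, 28.5 and 27.6 with fluvastatin and 48.4, 48.4 and 51.6 with simvastatin. Between fluvastatin and simvastatin, all libraries lay below control with simvastatin in MiaPaCa-2 and with fluvastatin in PANC-1. Lovastatin levels of COX16 are not listed here, and in PANC-1 it was called lower with lovastatin than with simvastatin, as given below. COX18 fell in MiaPaCa-2, from 6.27 and 7.40 FPKM to 1.71 to 3.96 (-1.12 ± 0.17 (SE), adjusted p = 2.81e-05), at levels where the added 1 FPKM shrinks fold changes.

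In ATP synthase, simvastatin at 20 µM lowered 14 of 15 genes in MiaPaCa-2 and raised 1, ATP5G2. In PANC-1 it lowered 8 and raised 4, ATP5D, ATP5E, ATP5G2 and ATP5I. Fluvastatin lowered 8 and raised 3 in MiaPaCa-2 and lowered 11 and raised none of them in PANC-1. Over all genes simvastatin raised 32.2% and lowered 33.1% in MiaPaCa-2 and raised 29.4% and lowered 30.2% in PANC-1. Fluvastatin raised 32.9% and lowered 32.5% of all genes in MiaPaCa-2 and raised 32.5% and lowered 31% in PANC-1. The share of ATP synthase genes raised was below that of all genes in each of these comparisons. ATP5B stood at 1468 and 1451 FPKM in MiaPaCa-2 control and 629 to 725 at 20 µM (-1.13 ± 0.04 (SE), adjusted p = 3.99e-13), and at 2229, 2091 and 1719 in PANC-1 control and 1065 to 1521 at 20 µM (-0.61 ± 0.07 (SE), adjusted p = 7.41e-07). In both lines every treated library was below every control. ATP5D, the delta subunit of the F1 part, stood at 149 and 132 FPKM in MiaPaCa-2 control and 233, 191 and 219.8 with fluvastatin, 197 and 199.9 with lovastatin and 81.6, 88.9 and 126 with simvastatin. In PANC-1 it stood at 119.7, 106.5 and 106 in control, 112.5, 102 and 104 with fluvastatin, 95.85, 105 and 125 with lovastatin and 172, 153 and 182 with simvastatin. In MiaPaCa-2 fluvastatin and lovastatin raised it and simvastatin lowered it, and in PANC-1 simvastatin raised it, while the other two statins gave no call. ATP5J2, a subunit of the membrane part, fell in PANC-1 from 684, 719.7 and 771 FPKM to 303 to 478 (-0.88 ± 0.11 (SE), adjusted p = 2.98e-06), with no overlap.

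The 3 genes of subunit c, ATP5G1, ATP5G2 and ATP5G3, encode the same mature protein of the rotor ring and moved apart. In MiaPaCa-2, ATP5G1 stood at 264 and 256 FPKM in control, 129, 140 and 128 with fluvastatin, 172 and 176 with lovastatin and 55.5, 86.6 and 79.75 with simvastatin at 20 µM (-1.12 ± 0.12 (SE), adjusted p = 3.75e-07). ATP5G3 stood at 613 and 591 in control and 199.9 to 323 at 20 µM (-1.19 ± 0.04 (SE), adjusted p = 6.39e-13). ATP5G2 rose, from 159.7 and 174 FPKM to 334, 320.5 and 346 with fluvastatin, 266 and 293.5 with lovastatin and 221, 234 and 249.6 with simvastatin (0.74 ± 0.06 (SE), adjusted p = 2.33e-08). For all 3 genes the treated MiaPaCa-2 libraries were apart from control. In PANC-1, ATP5G1 stood at 577, 501 and 352 FPKM in control, 183, 226 and 169 with fluvastatin, 260.4, 270.2 and 309 with lovastatin and 325, 337.5 and 328 with simvastatin (-0.84 ± 0.11 (SE), adjusted p = 2.34e-06), below a control replicate 3 that was itself lower than the other two. ATP5G3 stood at 380.5, 388 and 361 in control and 177.5 to 264 at 20 µM (-0.75 ± 0.06 (SE), adjusted p = 1.32e-08). ATP5G2 stood at 357, 384 and 314 in control and 339 to 437 at 20 µM, a log2 fold change of 0.12 with a 95% interval of 0.00 to 0.23 and an adjusted p of 0.075. The sum of the 3 genes, chosen after the values were seen and not tested, was 1029 ± 11.2 FPKM (SD, n = 2) in MiaPaCa-2 control, 782.9 ± 12.2 (SD, n = 3) with fluvastatin, 735.9 ± 32.5 (SD, n = 2) with lovastatin and 514 ± 22.2 (SD, n = 3) with simvastatin at 20 µM. The share of ATP5G2 in it was 16.2%, 42.6%, 38% and 45.7% in that order. In PANC-1 the sum was 1205 ± 155 FPKM (SD, n = 3) in control, 759.5 ± 17.3 (SD, n = 3) with fluvastatin, 864.1 ± 8.28 (SD, n = 3) with lovastatin and 998.7 ± 34.9 (SD, n = 3) with simvastatin, with ATP5G2 at 29.2%, 49.8%, 39.7% and 42.4%. At 20 µM every treated sum was below every control sum of its line, the PANC-1 simvastatin libraries by the least, with a highest sum of 1024 against a lowest control of 1028.

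**Figure D4:**
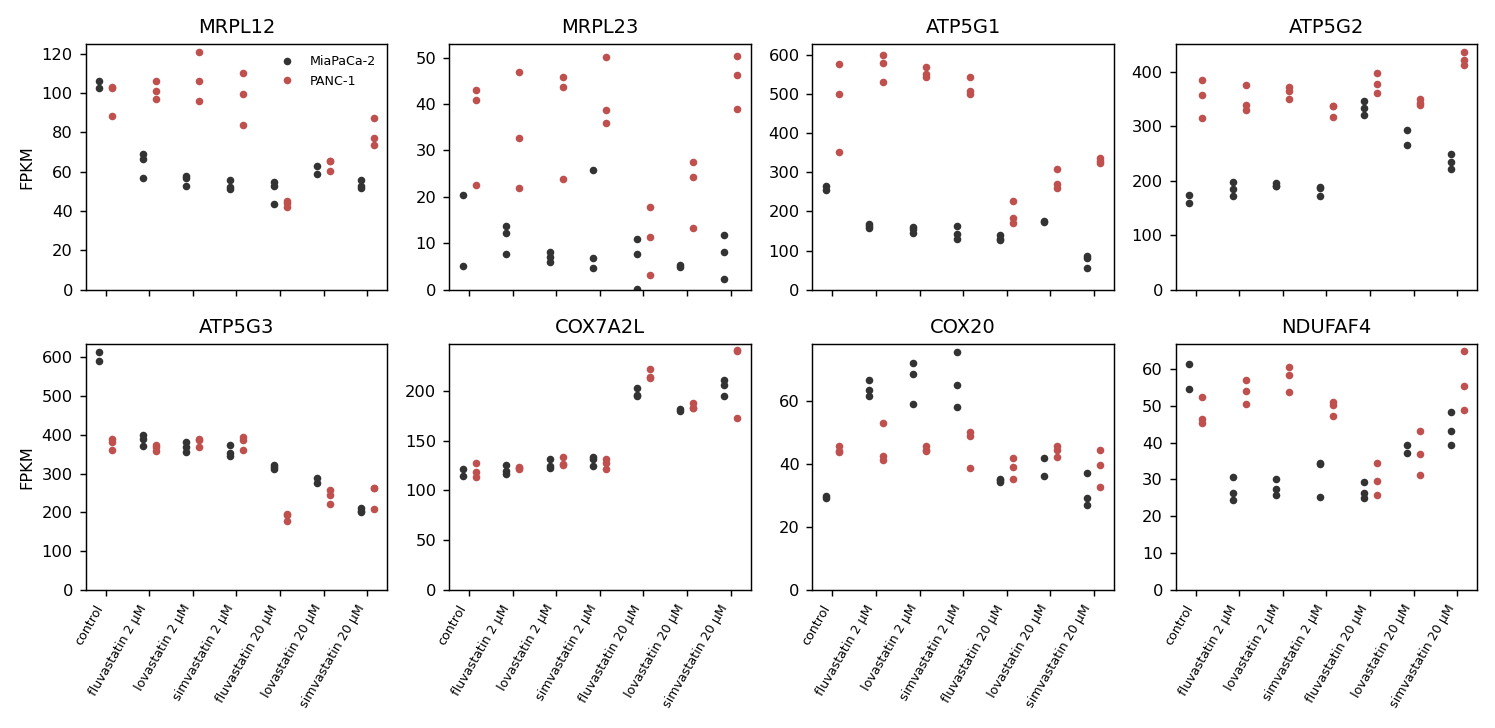
FPKM of 8 genes in each library (points), MiaPaCa-2 black and PANC-1 red, by group on the x axis; each panel has its own linear y axis starting at 0. COX7A2L is higher at 20 µM in both lines, COX20 is higher at 2 µM in MiaPaCa-2, ATP5G2 rises in MiaPaCa-2 while ATP5G1 and ATP5G3 fall, and MRPL23 varies within groups.

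Comparing 20 µM with 2 µM, which uses no control library, 25 ribosomal protein genes were higher and 20 lower at 20 µM in MiaPaCa-2, with a median of 0.06, and 21 chain genes were higher and 42 lower, with a median of -0.15 (78.5% of all genes called, 41.3% higher and 37.2% lower, median 0.05). In PANC-1, 5 ribosomal protein genes were higher and 47 lower, with a median of -0.30, and 11 chain genes were higher and 51 lower, with a median of -0.21 (74.1% called, 36.8% higher and 37.3% lower). In MiaPaCa-2, MRPL41 stood at 37.9 to 50.5 FPKM at 2 µM and 66 to 103 at 20 µM, around 76.1 and 70.6 in control (0.94 ± 0.05 (SE), adjusted p = 5.89e-11 for the dose difference). MRPL39 went the other way, from 74.2 to 93.8 at 2 µM to 35.8 to 47.4 at 20 µM (-0.95 ± 0.05 (SE), adjusted p = 1.19e-10). Neither gene's doses overlapped. In PANC-1 the largest falls with dose were of ATP5G1 (-1.07 ± 0.08 (SE), adjusted p = 4.93e-10) and ATP5J2 (-1.07 ± 0.08 (SE), adjusted p = 1.19e-09), and the largest rise was of COX7A2L (0.70 ± 0.05 (SE), adjusted p = 1.14e-09).

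The statins were compared with each other at matched concentrations, in 12 pairs over 2 lines and 2 concentrations, with p-values adjusted over all genes within each pair. At 2 µM almost no member differed. In MiaPaCa-2 limma called MRPL9 (0.63, adjusted p = 0.0456) and ATP5B (0.21, adjusted p = 0.0283) higher with fluvastatin than with simvastatin (0.562% of all genes called, 0.246% higher and 0.316% lower), named because they are the only calls and both lost under other settings. At an unadjusted p under 0.05 this pair had 15 ribosomal protein and 22 chain genes. As above, the shares of all genes are at the adjusted threshold and are no background for the unadjusted counts given here. The pairs with lovastatin had 0 members called (0.293% of all genes for simvastatin, 0.164% higher and 0.129% lower, and 0% for fluvastatin), with 7 and 8 ribosomal protein and 11 and 12 chain genes at an unadjusted p under 0.05, in that order. Median 95% intervals reached 0.24 on the log2 scale to either side for ribosomal protein and 0.17 for chain genes. In PANC-1 limma called 0 members in any pair at 2 µM (0% for simvastatin against lovastatin and 0.0116% of all genes for each of the other pairs). At an unadjusted p under 0.05 there were 1, 6 and 2 ribosomal protein and 2, 10 and 8 chain genes for simvastatin against lovastatin, fluvastatin against lovastatin and fluvastatin against simvastatin, with median 95% intervals reaching 0.25 and 0.2 to either side.

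At 20 µM simvastatin and lovastatin, which differ by a methyl group, gave different chain levels in each line, in opposite directions. In MiaPaCa-2, 46 of 81 chain genes were lower and 2 higher with simvastatin than with lovastatin, with a median difference of -0.37, and 14 ribosomal protein genes were lower and 10 higher, with a median of -0.03 (37.3% of all genes called, 17.9% higher and 19.4% lower). In PANC-1, 44 chain genes were higher and 2 lower, with a median of 0.28, and 28 ribosomal protein genes were higher and 1 lower, with a median of 0.29 (38.5% called, 17.6% higher and 21% lower). In all, 28 chain genes were lower in MiaPaCa-2 and higher in PANC-1, 60.9% of the former and 63.6% of the latter, against 23.1% and 25% over all genes. The totals of 46 lower in MiaPaCa-2 and 44 higher in PANC-1, of 81 chain genes, already give a large overlap. COX16 was an example, with a difference of -0.84 ± 0.13 (SE), adjusted p = 0.00012 in MiaPaCa-2 and 0.62 ± 0.11 (SE), adjusted p = 0.000397 in PANC-1. ATP5G1 differed in MiaPaCa-2 (-1.25 ± 0.13 (SE), adjusted p = 2.95e-06), and in PANC-1 its difference was 0.24 with a 95% interval of -0.03 to 0.52 (adjusted p = 0.158). NDUFS7 differed in PANC-1 (0.96 ± 0.12 (SE), adjusted p = 1.15e-05) and, with the other sign, in MiaPaCa-2 (-0.74 ± 0.08 (SE), adjusted p = 1.87e-06). MRPL1 was higher with simvastatin in PANC-1 (0.84 ± 0.24 (SE), adjusted p = 0.00951), a call lost without simvastatin 20 µM replicate 3 (0.67, adjusted p = 0.0507). The 24 ribosomal protein genes called in MiaPaCa-2 became 14 without lovastatin 20 µM replicate 2.

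Fluvastatin and lovastatin differed less in MiaPaCa-2, with 6 ribosomal protein genes higher and 2 lower and 14 chain genes higher and 4 lower with fluvastatin (23.5% of all genes called, 11.1% higher and 12.4% lower, median differences of -0.01 and 0.11). These counts of 8 and 18 fell to 3 without fluvastatin 20 µM replicate 3 and to 8 without lovastatin 20 µM replicate 1, and the ribosomal count was 4 or 5 without fluvastatin replicate 1 or either lovastatin library. In PANC-1 the same pair had 0 ribosomal protein genes higher and 18 lower and 1 chain gene higher and 17 lower (30.7% called, 13.8% higher and 16.9% lower, median differences of -0.18 and -0.12), with 10 ribosomal protein genes called without lovastatin 20 µM replicate 1 or 2. Counting both directions, the called share of each set was below that of all genes in both lines.

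Fluvastatin and simvastatin at 20 µM differed most, and again in opposite directions. In MiaPaCa-2, 60 of 81 chain genes were higher with fluvastatin and 5 lower, with a median difference of 0.48, and 21 ribosomal protein genes were higher and 15 lower, with a median of 0.06 (56.2% of all genes called, 27.8% higher and 28.4% lower). In PANC-1, 3 chain genes were higher and 63 lower, with a median of -0.41, and 1 ribosomal protein gene was higher and 49 lower, with a median of -0.46 (47.5% called, 23.9% higher and 23.7% lower). The 3 chain genes higher with fluvastatin were COX15, a heme A synthase, NDUFS1, a core iron-sulfur subunit of complex I, and UQCRC2. Of the chain genes, 45 were higher in MiaPaCa-2 and lower in PANC-1, which is 75% of the former and 71.4% of the latter, against 20.1% and 23.5% over all genes. These shares follow largely from the totals, since 60 of 81 chain genes were higher in MiaPaCa-2 and 63 lower in PANC-1. Of the 5 chain genes lower in MiaPaCa-2, 4 were also lower in PANC-1 (80%). The corresponding overlap of the ribosome was 15 genes, 71.4% and 30.6%. Of the ribosomal protein genes lower in MiaPaCa-2, 73.3% were also lower in PANC-1, against 27.1% over all genes. The 71.4% and 73.3% of the ribosome follow largely from the 49 of 66 ribosomal protein genes lower in PANC-1. COX16 differed by 1.01 ± 0.12 (SE), adjusted p = 2.15e-06, in MiaPaCa-2 and by -0.90 ± 0.11 (SE), adjusted p = 5.1e-06, in PANC-1, and ATP5D by 1.13 ± 0.12 (SE), adjusted p = 1.21e-06, and -0.66 ± 0.11 (SE), adjusted p = 0.000109, in the same order. MRPS27, a pentatricopeptide repeat protein of the small subunit, was the 1 ribosomal protein gene higher with fluvastatin in both lines (1.04 ± 0.20 (SE), adjusted p = 0.000293, and 0.50 ± 0.20 (SE), adjusted p = 0.0458). The difference between the lines in this comparison was tested after the values were seen. For simvastatin against fluvastatin, 70 chain genes were higher in PANC-1 than in MiaPaCa-2 and 1 lower, NDUFS1 (-0.82 ± 0.20 (SE), adjusted p = 0.00121). Of the ribosomal protein genes 42 were higher and 3 lower, where 51.1% of all genes were called, 25.2% higher and 25.8% lower. The largest of the chain were COX16 (1.91 ± 0.16 (SE), adjusted p = 5.48e-11), ATP5D (1.79 ± 0.17 (SE), adjusted p = 6.51e-10) and ATP5G1 (1.64 ± 0.18 (SE), adjusted p = 1.73e-08).

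**Figure D5:**
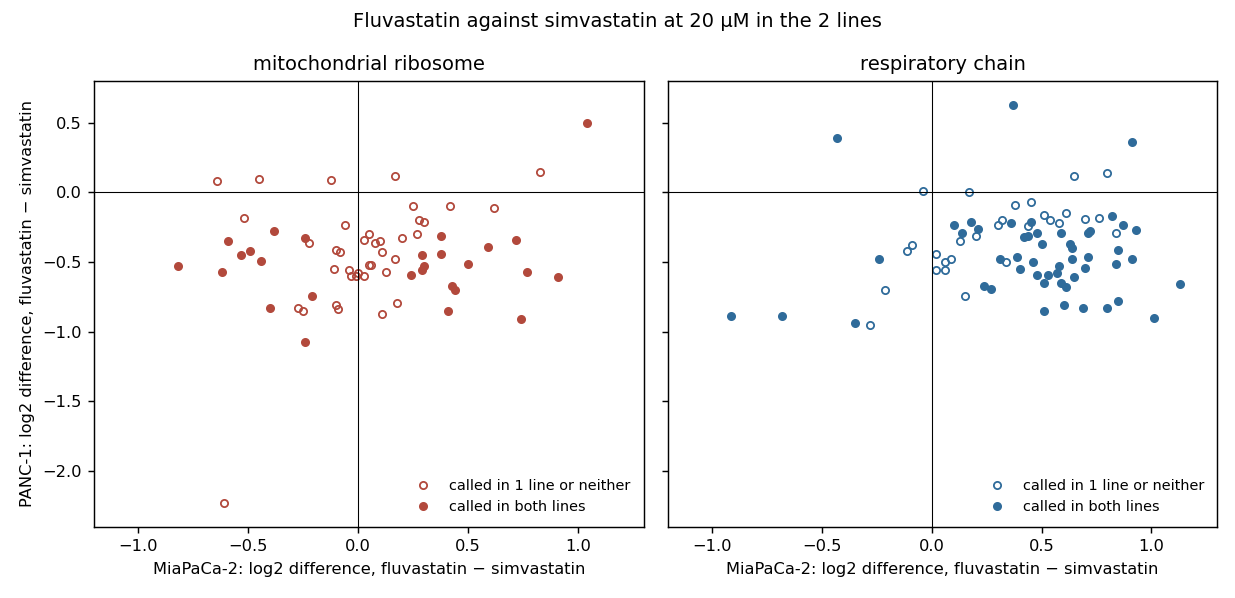
Log2 difference of fluvastatin minus simvastatin at 20 µM for each gene in MiaPaCa-2 (x axis) and PANC-1 (y axis), ribosomal protein genes left and chain genes right; filled points were called in both lines. Most chain genes lie to the lower right, 45 of them called higher in MiaPaCa-2 and lower in PANC-1.

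For the mean response at 20 µM, 13 ribosomal protein genes were higher in PANC-1 than in MiaPaCa-2 and 9 lower, and 31 chain genes were higher and 3 lower, where 37.6% of all genes were called, 19.9% higher and 17.7% lower. The ribosomal count of 22 was 12 without MiaPaCa-2 control replicate 2. By statin, the line difference was called for 62 chain genes with simvastatin, all higher in PANC-1, and for 29 ribosomal protein genes higher and 5 lower (46.1% of all genes called, 23.4% higher). With fluvastatin 8 chain genes were higher and 24 lower and 2 ribosomal protein genes higher and 14 lower (34.2% called, 17.6% higher and 16.6% lower), and with lovastatin 13 chain genes were higher and 10 lower and 9 ribosomal protein genes higher and 7 lower (32.5% called, 17.4% higher and 15.1% lower). The 23 chain genes called with lovastatin became 13 in the fit of only the groups compared. The lovastatin count of 16 ribosomal protein genes was 9 without MiaPaCa-2 control replicate 1 or 2 or MiaPaCa-2 lovastatin 20 µM replicate 2, and 10 without PANC-1 control replicate 3 or PANC-1 lovastatin 20 µM replicate 1.

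Partner genes outside the symbol rule were read from lists. Of 26 mitochondrial translation partners in the table, 3 rose and 17 fell in MiaPaCa-2 at 20 µM (mean of the statins) and 3 rose and 15 fell in PANC-1. Among them SLIRP, which stabilises mitochondrial mRNA, fell in MiaPaCa-2 (-1.09 ± 0.06 (SE), adjusted p = 3.02e-10), PTCD3, a small-subunit protein, fell in PANC-1 (-0.91 ± 0.21 (SE), adjusted p = 0.00104), and NSUN4, an rRNA methyltransferase, rose in PANC-1 (0.70 ± 0.16 (SE), adjusted p = 0.00089). Of 30 further chain partners and assembly factors, 3 rose and 18 fell in MiaPaCa-2 and 2 rose and 19 fell in PANC-1. SCO1, a copper chaperone of complex IV, fell in MiaPaCa-2 (-1.18 ± 0.13 (SE), adjusted p = 9.02e-07), and CYC1, cytochrome c1 of complex III, fell in PANC-1 (-0.66 ± 0.05 (SE), adjusted p = 1.63e-09). Of 8 genes for mitochondrial DNA upkeep and transcription, 6 fell in each line and none of them rose. TFAM, which packages mitochondrial DNA and starts its transcription, fell in both (-1.28 ± 0.11 (SE), adjusted p = 2.77e-08 in MiaPaCa-2 and -0.98 ± 0.08 (SE), adjusted p = 3.08e-09 in PANC-1).

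Of 6 nuclear regulators in the table, 2 rose and 2 fell in MiaPaCa-2, and 1 fell in PANC-1. These counts were near the shares of all genes in MiaPaCa-2 and below them in PANC-1, as given at the end of the paragraph. NRF1, a transcription factor of mitochondrial genes, fell in MiaPaCa-2 (-0.75 ± 0.15 (SE), adjusted p = 0.000407) and in PANC-1 (-0.57 ± 0.17 (SE), adjusted p = 0.00731), where the call was lost without control replicate 1 (-0.41, adjusted p = 0.0748). MYC rose in MiaPaCa-2 (1.04 ± 0.06 (SE), adjusted p = 1.47e-10), and in PANC-1 its change was 0.12 (adjusted p = 0.219). Of 11 enzymes of the TCA cycle, which supplies the chain with NADH and succinate, 1 rose and 8 fell in MiaPaCa-2 and 7 fell in PANC-1. Fumarate hydratase, FH, fell in both (-1.02 ± 0.16 (SE), adjusted p = 3.97e-05 in MiaPaCa-2 and -0.61 ± 0.13 (SE), adjusted p = 0.000499 in PANC-1). Of 24 genes for protein import and chaperones, 3 rose and 19 fell in MiaPaCa-2 and 1 rose and 17 fell in PANC-1, among them GRPEL1, the nucleotide exchange factor of mitochondrial Hsp70, in MiaPaCa-2 (-1.38 ± 0.11 (SE), adjusted p = 1.29e-08), and the chaperonin gene HSPE1 in PANC-1 (-1.09 ± 0.07 (SE), adjusted p = 6.02e-10). The lists are read against 34.1% of all genes higher and 33.7% lower in MiaPaCa-2, and 30.8% higher and 31.1% lower in PANC-1.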

How the data were processed

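Poly(A) RNA of untreated and statin-treated MiaPaCa-2 and PANC-1 cells was captured on poly-T, primed with random hexamers and sequenced as 150 bp paired ends, per the labels. The deposited values are log2(FPKM + 1): their scale was read from the values, which run from 0.00424 to 12.7713, and TopHat2 2.0.13, Cufflinks 1.1, Cuffdiff and hg19 come from the submitters' processing notes. No source used here states the scaling that gave all libraries nearly the same distribution (summed FPKM 583283 to 599863), or how the 8738 genes of the table were chosen. Depth is unknown, so no counting interval is given.

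Groups were taken from the labels. The 2 columns that equal weighted sums of others, within 1e-06 on the log2 scale, were left out of all fits. MiaPaCa-2 control replicate 3 combined the other control columns with 0.01 of a PANC-1 fluvastatin column, and lovastatin 20 µM replicate 3 combined the other lovastatin columns with 0.07 of a simvastatin column. All MiaPaCa-2 comparisons with control therefore rest on 2 control libraries.

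Genes with at least 1 FPKM in at least 3 libraries of a line (8534 in MiaPaCa-2 and 8615 in PANC-1) were fitted with limma 3.58.1 in R 4.3.3, with 1 mean per group, an intensity trend and robust variance moderation. The response of the lines was compared in 1 fit of all 40 libraries. P-values are two-sided and Benjamini-Hochberg adjusted over all genes, with calls made under 0.05. Fold changes are differences of log2(FPKM + 1) and understate changes of low genes. The pipeline was tested on simulated data.

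Members, partner lists and the naming rule were chosen with earlier results of these data known. By that rule the text draws, per line and concentration, on up to 6 members per direction and set with the largest mean change among those called the same way with all 3 statins, and up to 4 per direction for the other comparisons. Paralogs and extremes of expression were added. The line differences for single statins were added after the data were seen. Alternatives were the pseudocount, the filter, quantile normalization, the replicate block, plain moderation, all 42 columns, fits of only the groups compared, and leaving out each library. Promoters were searched in RefSeq windows of GRCh38.p14, matched by symbol. The NRF1 and YY1 motifs were shortened by 1 letter after their shares had been seen, and both lengths are given. Coordinates of the hg19 annotation were not used.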

Additional observations from a re-analysis of the deposited data

Results flagged for a closer look

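The response to statins was tested for a difference between the lines, PANC-1 minus MiaPaCa-2 (limma, adjusted p under 0.05). For the mean of the statins at 2 µM the test called 34 of 66 ribosomal protein and 39 of 81 chain genes, beside 40.5% of all genes. At 20 µM it called 22 and 34, beside 37.6% of all genes, so the ribosomal share was below that of the table, and the ribosomal count was 12 without MiaPaCa-2 control replicate 2. For single statins at 20 µM it called 16 and 32 with fluvastatin (34.2% of all genes), 16 and 23 with lovastatin (32.5%) and 34 and 62 with simvastatin (46.1%). The ribosomal shares with fluvastatin and lovastatin and the chain share with lovastatin were below those of all genes. The lovastatin count of the ribosome fell to 9 without MiaPaCa-2 control replicate 1 or 2 or MiaPaCa-2 lovastatin 20 µM replicate 2, and to 10 without PANC-1 control replicate 3 or PANC-1 lovastatin 20 µM replicate 1. For simvastatin against fluvastatin the test called 45 and 71, beside 51.1% of all genes. The tests for single statins were added after the data were seen.

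At 2 µM the log2 difference was 1.15 for NDUFAF4, 1.11 for MRPL34, 1.08 for NDUFS6 and 0.99 for ATP5G1, all of which fell in MiaPaCa-2. In PANC-1 their changes were 0.15, 0.07, 0.23 and 0.23 in that order, and none of these was called. The differences of the other sign were -1.10 for COX20, -0.48 for MRPL17, -0.28 for UQCRB and -0.27 for NDUFA2, a complex I subunit gene. The call for MRPL17 was lost without any 1 of 18 libraries, with the smallest difference, -0.27, without MiaPaCa-2 control replicate 2 (adjusted p = 0.403). That for UQCRB was lost without any 1 of 13, with -0.18 without MiaPaCa-2 control replicate 1 (adjusted p = 0.331), and that for NDUFA2 without any 1 of 10, with -0.17 without PANC-1 control replicate 3 (adjusted p = 0.21).

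At 20 µM the difference was 1.03 for MRPL13, a large-subunit protein gene, 1.00 for COX14, 0.87 for COX18 and 0.83 for the complex I subunit gene NDUFA5. It was -0.63 for ATP5G2, -0.60 for the small-subunit protein gene MRPS25, -0.58 for MRPS21 and -0.55 for MRPS2. The call for COX18 (0.76, adjusted p = 0.0692) and for MRPS2 (-0.45, adjusted p = 0.072) was lost without MiaPaCa-2 control replicate 2, and that for MRPS25 (-0.58, adjusted p = 0.0642) without MiaPaCa-2 control replicate 1.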

How the results depend on the processing

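Of 488 recomputed counts of called genes under the planned settings, 468 stayed within 1.5 times the value reported, as did 572 of 618 with 1 library left out. For the pair of fluvastatin and simvastatin at 2 µM in MiaPaCa-2, 1 ribosomal protein gene became 0 without the filter, with the replicate block, without trend and robust moderation and with only the groups compared, and 2 with all 42 columns. The 1 chain gene of that pair became 0 without trend and robust moderation and with only the groups compared, and 3 with all 42 columns. All 42 columns also gave 2 chain genes for simvastatin against lovastatin at 2 µM (0 reported), and 16 ribosomal protein and 33 chain genes for fluvastatin against lovastatin at 20 µM (8 and 18), in MiaPaCa-2. Only the groups compared gave 15 ribosomal protein genes for simvastatin against lovastatin at 20 µM in MiaPaCa-2 (24), 13 ribosomal protein and 24 chain genes for simvastatin at 20 µM in PANC-1 (24 and 46), 3 ribosomal protein genes for the mean at 2 µM in PANC-1 (0), and 13 chain genes for the lovastatin difference between lines at 20 µM (23). For fluvastatin at 2 µM in PANC-1, 2 ribosomal protein genes became 1 with the replicate block, 1 without trend and robust moderation and 0 with only the groups compared, and 1 chain gene became 0 with the last. The causes were not tested.

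With 1 library left out, counts in MiaPaCa-2 ranged from 25 to 36 ribosomal protein genes for fluvastatin at 2 µM (40 reported), 0 to 1 chain gene for simvastatin against lovastatin at 2 µM, 0 to 1 of either set for fluvastatin against simvastatin at 2 µM, 14 to 22 ribosomal protein genes for simvastatin against lovastatin at 20 µM, and 3 to 6 ribosomal protein and 8 to 16 chain genes for fluvastatin against lovastatin at 20 µM. In PANC-1 at 2 µM they ranged from 0 to 1 ribosomal protein and 0 to 2 chain genes with fluvastatin, 0 to 1 and 0 to 3 with lovastatin and for the mean, and 0 to 2 chain genes with simvastatin. At 20 µM they ranged from 10 to 16 ribosomal protein genes for fluvastatin against lovastatin in PANC-1, 12 to 24 for the mean difference between lines and 9 to 16 for the lovastatin difference. Of single genes, 965 of 977 planned and 1720 of 1790 left-out values kept their call. MRPL10 in MiaPaCa-2 at 20 µM, 0.03 and not called, ranged from -0.00 without simvastatin 20 µM replicate 2 to 0.08 without replicate 3 of that group.

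Libraries with the same replicate number showed no strong shared deviation. Their deviations correlated with a median of -0.00 in both lines, from -0.03 to 0.03 over 52 pairs in MiaPaCa-2. In PANC-1 the range was -0.09 to 0.16 over 63 pairs, of which 2 were over 0.1. Whether the numbers pair samples by design cannot be told from these correlations. The replicate block moved no count by over 1.5 times other than those given.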
